A study of Mus musculus with 6 samples.

Results

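The 33 genes described here belong to the unfolded protein response and to the amino acid response driven by the transcription factor ATF4. They were chosen by gene symbol from a list of known pathway genes, and 33 of 33 were found among the 30631 genes listed in each library. Expression was measured by RNA sequencing in mouse embryonic stem cell derivatives driven toward a sinoatrial node-like cardiomyocyte fate, sorted for the surface protein CD166 and collected at stage 7+1 days. In 3 libraries the genotype is labelled wild type and in 3 it is labelled Shox2-/-, a label for loss of the pacemaker homeobox gene Shox2. The allele is not described in the sources used here, and the Shox2 values are given below. For all 6 the stem cells were grown on a feeder layer of mouse embryonic fibroblasts and differentiated by hanging drop, and no further allele, drug or agent is named for either group. The 3 titles labelled Shox2-/- begin alike (J2) and those labelled wild type do not, so clone and genotype cannot be told apart, and separate cultures are nowhere stated. A further title word (Diff9) parts libraries 1 and 2 labelled wild type and library 3 labelled Shox2-/- from the other 3. P-values therefore reflect just the variation among these 6 samples, part of which may be technical.

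The endoplasmic reticulum (ER) folds secreted and membrane proteins. When folding falls behind, the sensor ATF6 is cut into a transcription factor, the sensor IRE1 (gene Ern1) splices Xbp1 mRNA into its active form, and both routes induce ER chaperones and the machinery of ER-associated degradation. A further sensor, the kinase PERK, and the amino acid sensing kinase GCN2 slow translation and let the ATF4 protein accumulate, and ATF4 then induces genes of amino acid synthesis and import together with stress regulators such as CHOP (gene Ddit3). Much of this control acts on splicing, cleavage and translation, which gene-level counts do not show. Fibroblasts and endoderm that secrete large amounts of matrix or serum proteins are known for high levels of these chaperones.

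Some promoters of the 2 arms carry different known elements, and sequences are shown here as a property that expression values did not set. RefSeq promoter windows of 300 bases (GRCm38.p6, 250 before and 50 after the start) were found for 30 of 33 genes, 32 windows in all. The ER stress response element (ERSE) was searched on both strands as CCAAT, any 9 bases, then CCACG. It was present in 7 of 12 windows of ER folding genes (Hspa5, Hsp90b1, Calr, Canx, Creld2, Dnajc3 and Pdia6) and in that of Syvn1, against 0.119% of all 32851 windows. This element was first described in promoters of ER chaperones, so its presence there is known. Hsp90b1 held a second match on the opposite strand. Matches are printed 5′ to 3′ along the gene with their fixed letters in capitals. A match on the opposite strand shows the reverse complement, and distances run from the RefSeq start to the match.

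Hspa5 ERSE (chr2:34772020-34772049, plus strand, 65 bases before the start): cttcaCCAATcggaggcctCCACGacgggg
Hsp90b1 ERSE (chr10:86705632-86705661, minus strand, 212 bases before): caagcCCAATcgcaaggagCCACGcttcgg
Calr ERSE, opposite strand (chr8:84847069-84847098, minus strand, 162 bases before): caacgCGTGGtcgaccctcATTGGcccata
Pdia6 ERSE (chr12:17266486-17266515, plus strand, 98 bases before): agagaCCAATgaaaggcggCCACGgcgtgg

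The core of the C/EBP-ATF response element (CARE), the site class that ATF4 binds with C/EBP partners, was searched as TGATGNAA on both strands. It was found in the windows of Asns, Slc7a11, Chac1, Trib3 and Herpud1, which makes 5 of 32 windows (15.6%) against 3.97% of all windows and 2.33% of those of tested genes. By role it was found in 2 of 7 windows of amino acid genes, 2 of 7 of ATF4 stress effectors and 1 of 4 of degradation genes. In ER folding windows it was found in 0 of 12. Most windows of the amino acid arm thus lacked it, and it did not mark that arm as a whole. Herpud1 also carried the related element ERSE-II (ATTGG, any 1 base, then CCACG), as did Dnajb11 and 0.0365% of all windows. The core TGACGTGG of the unfolded protein response element (UPRE) was in 0 of 32 windows and in 0.676% of all. In the windows of these genes no 2 matches overlapped. The CARE matches and the ERSE-II match of Herpud1 are printed because the genes that carry them are described in detail below.

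Asns CARE (chr6:7693214-7693243, minus strand, 23 bases before the start): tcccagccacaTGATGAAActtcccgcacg
Slc7a11 CARE (chr3:50443661-50443690, minus strand, 66 bases before): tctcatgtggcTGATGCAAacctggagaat
Slc7a11 second CARE, opposite strand (chr3:50443642-50443671, minus strand, 47 bases before): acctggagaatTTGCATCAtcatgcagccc
Chac1 CARE, opposite strand (chr2:119351038-119351067, plus strand, 193 bases before): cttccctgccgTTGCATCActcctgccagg
Trib3 CARE, opposite strand (chr2:152344028-152344057, minus strand, 14 bases after): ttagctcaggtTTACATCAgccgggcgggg
Herpud1 CARE, opposite strand (chr8:94386306-94386335, plus strand, 112 bases before): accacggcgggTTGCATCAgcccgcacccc
Herpud1 ERSE-II (chr8:94386368-94386397, plus strand, 52 bases before): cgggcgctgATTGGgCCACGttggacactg

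The depth ranged from 13504683 to 34650564 reads in genes, and library 1 of each group was the shallowest. Shox2 itself had 89.6, 83.4 and 31.4 normalized counts (reads divided by a size factor for each library) in libraries 1 to 3 of the wild-type label and 201, 548 and 373 under the Shox2-/- label. The targeted gene was thus higher in the libraries labelled Shox2-/-, and every direction below is a direction between labels. Libraries 1 and 2 labelled wild type were nearly alike, with 14.6% of genes differing beyond counting error against 48.5% to 72.4% in the other 14 pairs. Library 3 labelled wild type stood apart: its 6 cardiomyocyte markers summed to 6336 against 18576 and 19907 in the other wild-type libraries. Library 1 labelled Shox2-/- was nearly as low in these markers, at 6910, and the other Shox2-/- libraries were at 15812 and 24500.5. In library 3 labelled wild type the 8 fibroblast or mesenchyme markers summed to 595984, against 373230 and 378026 in the other wild-type libraries. The range in libraries labelled Shox2-/- was 176396 to 278760. Of the cardiomyocyte and the sinoatrial markers, 6 of 6 each reached a normalized count of 10 in at least 1 library, but in each library the fibroblast or mesenchyme markers, which feeder cells also express, summed to more than the cardiomyocyte markers did.

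No gene of the pathway passed the test between the labelled genotypes. All 33 passed the filter on low values (at least 10 in 3 or more libraries). With limma on log2(normalized count + 1), 0 of 33 were called at an adjusted p under 0.05, and the background of calls was 0% of 17034 tested genes. At an unadjusted p under 0.05, 3 were lower in the libraries labelled Shox2-/- (Trib3, Herpud1 and Dnajb9), where 7.23% of all genes were, and 1 was higher (Sdf2l1), where 6.92% were. The groups did not overlap for 5 genes that were lower (those 3, Calr and Atf5; 10.8% of all genes) and for 1 that was higher (Sdf2l1; 12.8%). These shares are near the background, so they are not a result about the 33 genes. Limma voom on recovered reads, chosen after the data were seen, also called 0 of 33. It put 4 at an unadjusted p under 0.05, where 13.17% of all genes were.

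The values departed furthest in a single library. In library 3 labelled wild type 23 of 33 genes had their highest value of the 6 libraries, whereas 25.5% of all tested genes did. Against the mean of libraries 1 and 2 with the same label, 27 of 33 were higher there (51.1% of all genes), and 11 of 33 were more than 1.5-fold higher (12.03% of all genes). The median excess was 0.40 on the log2 scale, a fold of 1.32, against 0.01 over all genes. This is 1 library with no replicate of its own, so no test applies. It also differs from libraries 1 and 2 in the title word Diff9, so library and title group cannot be told apart in these folds.

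**Figure D1:**
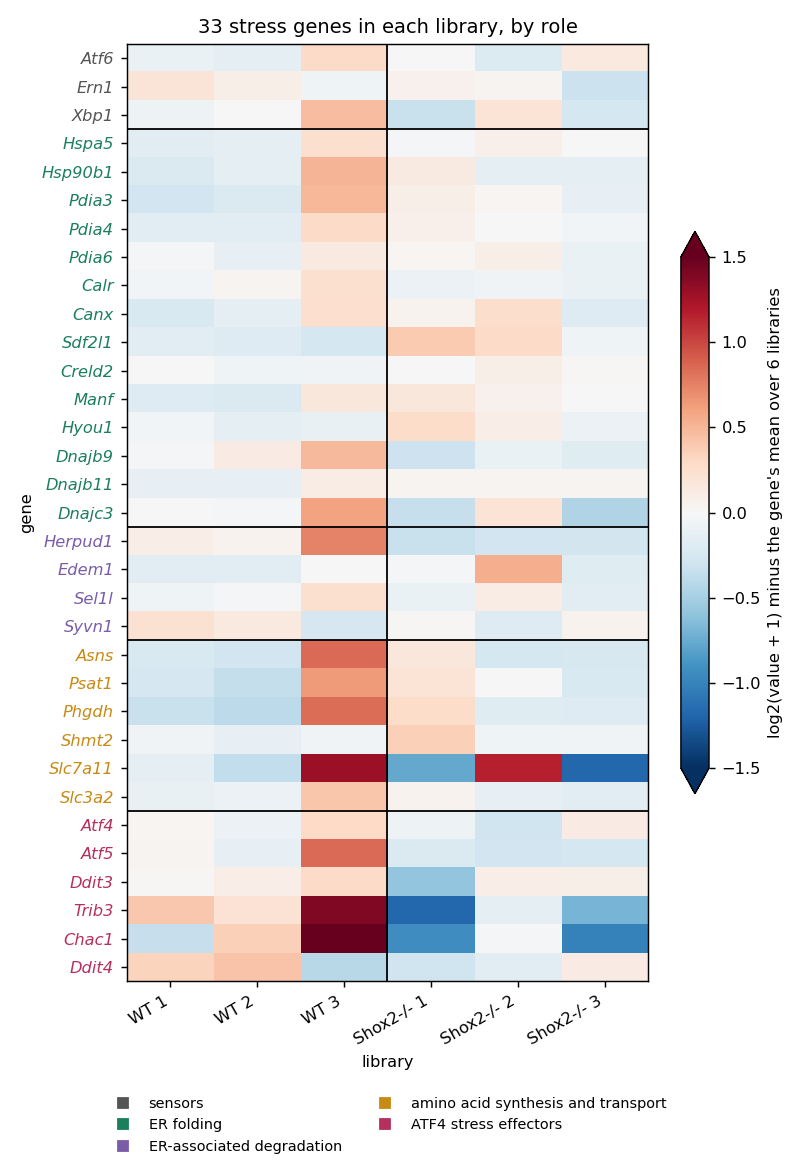
Deviation of log2(normalized count + 1) from each gene's mean over 6 libraries (colour) for 33 genes (rows, grouped and coloured by role) in 6 libraries (columns; the vertical line parts the labelled genotypes). Library 3 labelled wild type holds the highest value of 23 of the 33 genes, with the deepest colours among the amino acid and ATF4 stress genes.

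The levels of the genes, compared per length as normalized count per kilobase of annotated exon, ran from 5.62 to 7968 under the wild-type label. ER folding genes held the top of the order. Hspa5, which encodes the main ER chaperone BiP, was at 7968 ± 1320 (SD, n = 3) per kilobase under the wild-type label and 8143 ± 275 (SD, n = 3) under the Shox2-/- label. Calr (calreticulin), Canx (calnexin), Hsp90b1 (GRP94) and the disulfide isomerase genes Pdia3, Pdia6 and Pdia4 followed, down to 3163 ± 590 (SD, n = 3) per kilobase for Pdia4 with the wild-type label. Hspa5 and Calr, at 7829 ± 782 (SD, n = 3) with that label, did not differ beyond their spread. Atf4 came next at 2605 ± 368 (SD, n = 3) and 2324 ± 332 (SD, n = 3), the highest level of any regulator in the list. At the bottom stood Ern1 at 48.8 ± 4.37 (SD, n = 3), Chac1 at 41.8 ± 35.6 (SD, n = 3) and Slc7a11 at 5.62 ± 3.83 (SD, n = 3) per kilobase with the wild-type label. Ern1 and Chac1 did not differ beyond their spread.

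**Figure D2:**
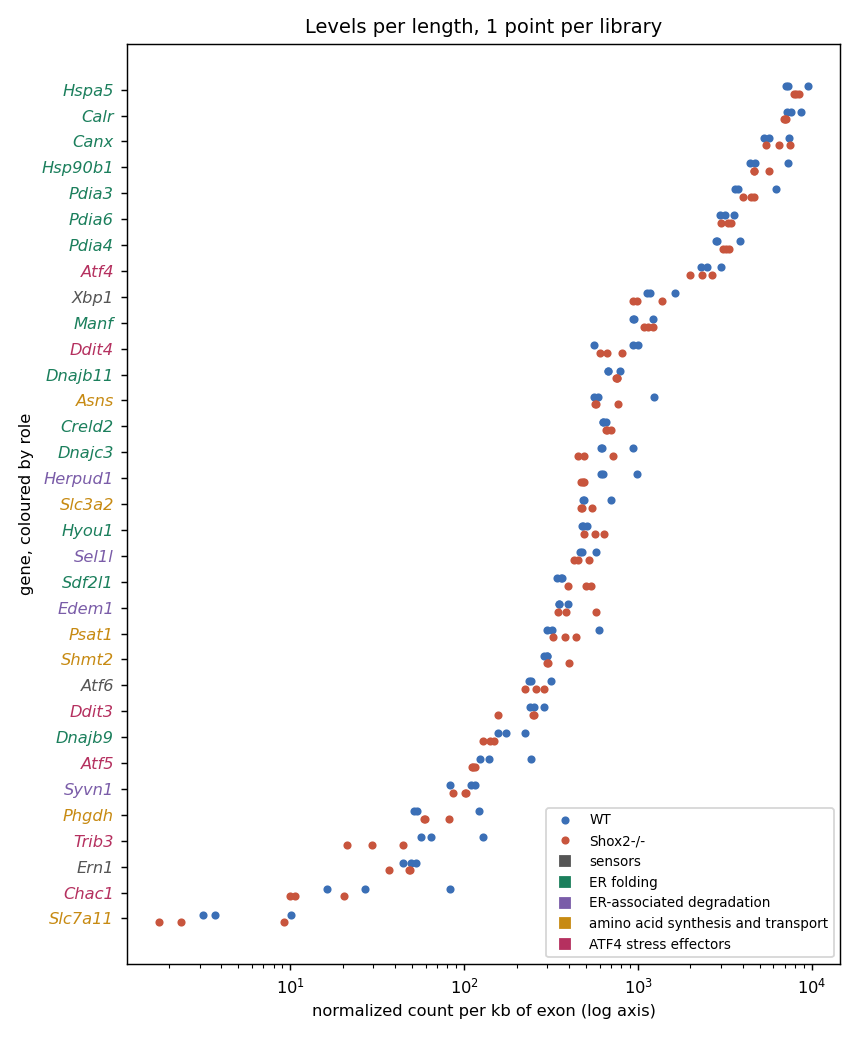
Normalized count per kilobase of exon (log axis) for 33 genes in order of level, with 1 point per library and gene names coloured by role. The 7 genes at the top are ER folding genes, and points of the 2 labelled genotypes overlap for 27 of the 33 genes.

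The sensors and their transcription factor did not pass the test. Atf6 was at 2229, 2181 and 2911 normalized counts in libraries 1 to 3 of the wild-type label and at 2381, 2076 and 2648 under the Shox2-/- label. The groups overlapped, and the log2 change (Shox2-/- minus wild type) was -0.04 (95% interval -0.39 to 0.31). Ern1, which encodes IRE1, was at 433, 401 and 362 and at 398, 391 and 303, with a log2 change of -0.14 (-0.51 to 0.23). Xbp1, whose spliced form encodes the transcription factor XBP1s, was at 3643, 3819 and 5298 and at 3033, 4428 and 3196, with a log2 change of -0.26 (-0.72 to 0.20). Xbp1 was highest in library 3 labelled wild type, and Ern1 was lower there than in libraries 1 and 2. The values count both forms of Xbp1 together, so splicing by IRE1 was not measured.

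Among the 14 ER folding genes, 10 had a higher mean and 4 a lower mean under the Shox2-/- label, with a median log2 change of 0.04 against 0.01 over all 17034 genes. Of the 14, 0 passed the adjusted threshold in limma. At an unadjusted p under 0.05, 1 was lower and 1 higher, where 7.23% and 6.92% of all genes were. Scaling by library totals made the split 7 higher and 7 lower (median -0.003), and scaling by upper quartiles made it 8 and 6. Without library 3 labelled wild type 11 were higher and 3 lower (median 0.17), and without library 1 with that label 5 were higher and 9 lower (median -0.03), so no direction is given for the group.

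Sdf2l1, a component of the BiP chaperone complex, was at 407, 399 and 380 normalized counts under the wild-type label and at 597, 556 and 437 under the Shox2-/- label. The lowest library labelled Shox2-/- lay above the highest labelled wild type. Its log2 change was 0.41 (SE 0.15; limma adjusted p = 0.307), a fold of 1.33, and it was 0.38 without library 3 labelled wild type. Hyou1, which encodes the BiP exchange factor GRP170, was at 3675, 3441 and 3502 and at 4593, 4062 and 3546, with overlapping groups and a log2 change of 0.19 (-0.08 to 0.47). Both genes were at their highest in library 1 labelled Shox2-/-.

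The J-domain co-chaperones of BiP did not share 1 direction. Dnajb9, which encodes ERdj4, was at 400, 443 and 571 under the wild-type label and at 327, 378 and 356 under the Shox2-/- label. The groups did not overlap, and the log2 change was -0.40 (SE 0.17; limma adjusted p = 0.346), or -0.25 without library 3 labelled wild type. Dnajc3, which encodes the ER J-protein P58IPK, was at 3185, 3149 and 4824 and at 2509, 3673 and 2318, a log2 change of -0.39 (-0.93 to 0.14) with overlapping groups, or -0.19 without that library. Dnajb11, which encodes ERdj3, varied least around its mean in the libraries labelled Shox2-/-, at 2435 ± 6.55 (SD, n = 3) against 2302 ± 214 (SD, n = 3). Its log2 change was 0.09 (-0.15 to 0.32).

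The abundant chaperones, described after their values were seen, differed little between the labels. Hspa5 was at 30146, 30813 and 40133 normalized counts and at 33545, 35751 and 34011, and its log2 change of 0.04 had a 95% interval of -0.29 to 0.38. Calr, which folds glycoproteins together with calnexin, was at 20722, 21853 and 25065 and at 20076, 20413 and 19807. Its groups did not overlap, and the log2 change was -0.16 (-0.43 to 0.10). Hsp90b1 and Pdia3 were far higher in library 3 labelled wild type, which read 29451 for Hsp90b1 against 17831 and 18905 in libraries 1 and 2, and 19383 for Pdia3 against 11266 and 11816. The remaining members of the group (Pdia4, Pdia6, Canx, Creld2 and Manf) had log2 changes between 0.01 and 0.16.

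Genes of ER-associated degradation, which returns misfolded proteins to the cytosol for breakdown, gave log2 changes in both directions, with 3 of 4 lower. In limma and in voom 0 of 4 were called. In each fit 1 had an unadjusted p under 0.05, where 14.15% of all genes had one in limma and 13.17% in voom. Herpud1, a membrane adaptor of that machinery, was at 1469, 1428 and 2297 normalized counts under the wild-type label and at 1088, 1122 and 1135 under the Shox2-/- label. Every value of the second group lay below every value of the first. The log2 change was -0.60 (SE 0.19; limma adjusted p = 0.278). Without library 3 labelled wild type it was -0.38, with the groups still apart, as they were in this direction for 18.9% of all genes. Syvn1, the ubiquitin ligase HRD1 of the same complex, was at 563, 534 and 404 and at 488, 421 and 498, a log2 change of -0.08 (-0.47 to 0.31). Sel1l, its membrane partner, was at 3955, 4062 and 4888 and at 3849, 4449 and 3657, a log2 change of -0.11 (-0.40 to 0.19). Edem1, a lectin that selects glycoproteins for breakdown, was at 2254, 2249 and 2538 and at 2483, 3705 and 2229. Its highest value was in library 2 labelled Shox2-/-, and its log2 change was 0.22 (-0.22 to 0.67).

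The amino acid arm showed the contrast between libraries most plainly. Of its 6 genes, 5 were lower and 1 higher in the libraries labelled Shox2-/-, with a median log2 change of -0.11. In limma 0 of 6 passed, and 0 had an unadjusted p under 0.05, as was also so with voom. Without library 3 labelled wild type the direction turned, with 5 higher and 1 lower and a median of 0.16, as it did with sample quality weights (4 higher, 2 lower, median 0.11), and without library 3 labelled Shox2-/- the split was 3 and 3. Library 3 labelled wild type was above the mean of libraries 1 and 2 with that label for 6 of 6 genes, by a median fold of 2.03.

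Asns, the asparagine synthetase gene and a textbook ATF4 target, was at 1598, 1533 and 3359 normalized counts under the wild-type label and at 2097, 1554 and 1573 under the Shox2-/- label. A single library, the third labelled wild type, lay far above the other 5. The log2 change was -0.23 (-0.94 to 0.48), and 0.14 without that library. Phgdh and Psat1, which encode the first enzymes of serine synthesis from glycolysis, were named after their values were seen. Phgdh was at 133, 127 and 301 and at 202, 147 and 146, and Psat1 at 1356, 1267 and 2524 and at 1862, 1616 and 1383. Both were highest in library 3 labelled wild type and second highest in library 1 labelled Shox2-/-. Without the first of these libraries the groups did not overlap for either gene, with log2 changes of 0.33 and 0.30 toward the libraries labelled Shox2-/-. Over the whole list 8 of 33 genes were lower without overlap in that comparison and 8 of 33 higher, against 18.9% and 22.9% of all genes.

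Shmt2, the mitochondrial serine hydroxymethyltransferase gene, did not follow Psat1 and Phgdh, at 936, 890 and 935 normalized counts and at 1244, 930 and 937. Library 3 labelled wild type was at the level of libraries 1 and 2, and library 1 labelled Shox2-/- was the high one. Slc3a2, the heavy chain shared by several amino acid exchangers, was at 1706, 1732 and 2464 and at 1907, 1684 and 1653, a log2 change of -0.15 (-0.53 to 0.23). Slc7a11, its light chain partner in the cystine importer, rested on 19 to 178 reads per library. It was at 51.5, 43.7 and 140 normalized counts under the wild-type label and at 32.9, 128 and 24.4 under the Shox2-/- label. Library 3 of the first group and library 2 of the second were both high, and the log2 change of -0.52 had an interval from -2.13 to 1.09. Without the first of these libraries it was -0.01.

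**Figure D3:**
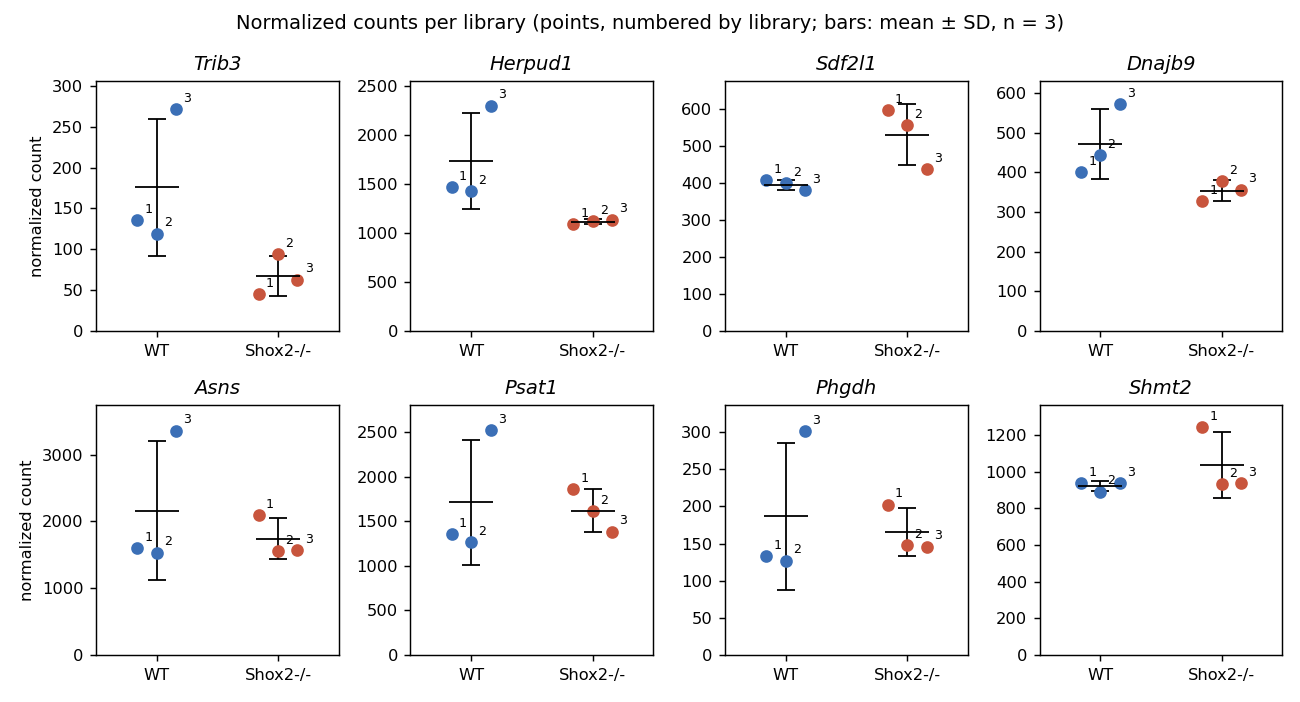
Normalized counts of 8 genes in each library (points, numbered by library; horizontal bar and whiskers, mean ± SD, n = 3) for the libraries labelled wild type (WT) and Shox2-/-. The groups are apart for Trib3, Herpud1, Sdf2l1 and Dnajb9, whereas Asns, Psat1 and Phgdh have 1 high library (WT 3) and Shmt2 does not.

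Atf4 itself and the stress genes linked to it, grouped here as ATF4 stress effectors, were all lower by mean in the libraries labelled Shox2-/-. Of these 6 genes, 6 were lower and 0 passed in limma, with a median log2 change of -0.39, against 48.2% lower over all genes. At an unadjusted p under 0.05 there was 1 (Trib3) in limma and 1 in voom, against 14.15% and 13.17% of all genes. All 6 were lower also without library 3 labelled wild type (median -0.35) and under both other scalings. With sample quality weights 5 were lower and Atf4 was not.

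Trib3, a pseudokinase that restrains ATF4 signalling, had the largest change of the 33 genes in limma. It was at 136, 119 and 272 normalized counts under the wild-type label and at 45.0, 93.8 and 63.0 under the Shox2-/- label, from 26 to 346 reads. The highest library of the second group lay below the lowest of the first, and the mean level was 2.53-fold lower on the log2(normalized count + 1) scale. The log2 change was -1.34 (SE 0.39, 95% interval -2.25 to -0.42; limma adjusted p = 0.257), and -0.98 without library 3 labelled wild type. It did not pass without any single library in turn either (adjusted p 0.193 to 0.554).

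Chac1, an enzyme that degrades glutathione and is induced through ATF4, was at 26.6, 43.7 and 135 and at 17.3, 33.1 and 16.3, from only 10 to 172 reads. The groups overlapped, and the log2 change was -1.32 (-2.73 to 0.09), or -0.67 without library 3 labelled wild type. Atf5, a transcription factor related to ATF4, was at 276, 245 and 481 and at 230, 220 and 223. Its groups did not overlap, with a log2 change of -0.51 (-1.11 to 0.09), and -0.21 without that library. Ddit3, the gene of the pro-apoptotic factor CHOP, was at 408, 431 and 491 and at 266, 432 and 428, so that only library 1 labelled Shox2-/- was low, and the log2 change was -0.27 (-0.77 to 0.23). Atf4 mRNA was at 5872, 5442 and 7114 and at 5484, 4695 and 6260, a log2 change of -0.17 (-0.51 to 0.18) with overlapping groups. Ddit4, an inhibitor of mTORC1 that also responds to hypoxia and glucocorticoids, ran against the others in library 3 labelled wild type, where it was lowest of all 6 (1637, 1758 and 975, and 1061, 1157 and 1416). Without that library its log2 change was -0.50, against -0.23 with it. The 7 hypoxia markers summed to 9027 in that library and to 10865 and 10934 in libraries 1 and 2 with its label, and to 6677, 10214 and 11243 under the Shox2-/- label. Their part in the Ddit4 values was not tested.

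**Figure D4:**
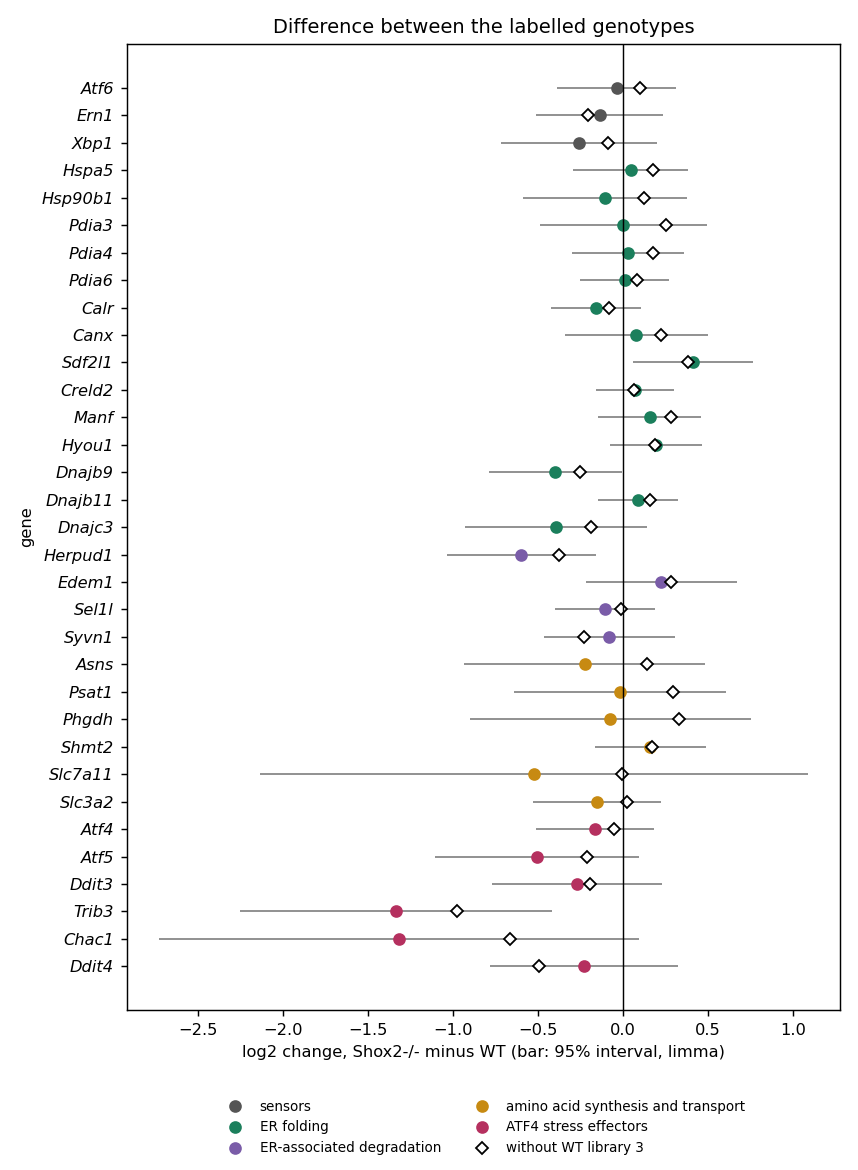
Log2 change (Shox2-/- minus wild type, limma on log2(normalized count + 1)) of 33 genes with 95% intervals, coloured by role, and the same without library 3 labelled wild type (open diamonds). The intervals of 29 genes cross 0; Trib3, Herpud1, Dnajb9 and Sdf2l1 are the exceptions, and for Asns, Psat1 and Phgdh, among others, the diamond lies on the other side of 0.

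Set side by side, the chaperone and the amino acid arm differed in how far they departed from their own means, library by library. The mean log2 deviation of the 14 ER folding genes was -0.12, -0.11 and 0.22 in libraries 1 to 3 of the wild-type label and 0.04, 0.07 and -0.10 under the Shox2-/- label. That of the 6 amino acid genes was -0.19, -0.27 and 0.66 and then 0.05, 0.09 and -0.34. In library 2 labelled Shox2-/- the amino acid mean rested on 1 of 6 genes above its own mean (Slc7a11), whereas 11 of 14 ER folding genes were above theirs. In library 1 with that label 5 of 6 amino acid genes were above their own mean, and Slc7a11, from 19 reads, was below. The amino acid means under that label thus depend in part on this gene of few reads. Chaperone minus amino acid came to 0.07, 0.16 and -0.44 with the wild-type label and to -0.01, -0.02 and 0.24 with the Shox2-/- label, and the 2 groups overlapped. Parted by the title word Diff9, libraries 1 and 2 labelled wild type and library 3 labelled Shox2-/- were at 0.07, 0.16 and 0.24. The other libraries were at -0.44, -0.01 and -0.02, so these sets did not overlap, nor did they for either arm alone. What the word stands for is not given here, and its part in the contrast was not tested. The median log2 changes of the arms, 0.04 and -0.11, differed by 0.15, by 0.003 with sample quality weights and by 0.01 to 0.25 with each library left out, lowest without library 3 labelled wild type and highest without library 1 labelled Shox2-/-. With the Diff9 block (a term for the 3 libraries with that word in their titles) the medians differed by 0.23. With the broad arms, in which the degradation genes join the chaperones and the ATF4 stress effectors join the amino acid genes, the medians were 0.02 and -0.23.

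The ATF4 stress effectors departed from both arms. Their mean log2 deviation was 0.08, 0.15 and 0.73 under the wild-type label and -0.55, -0.14 and -0.27 under the Shox2-/- label. The groups did not overlap for this average, which is given without a test. In library 3 labelled Shox2-/- 3 of the 6 genes were above their own mean. The negative average there rested on the others, among them Chac1 and Trib3, which had few reads. Library 1 labelled Shox2-/- had the lowest value for the stress effectors, while 5 of its 6 amino acid genes were above their own mean. The summed dissociation response markers, immediate early and heat shock genes, were also lowest in that library, at 8395 against 11998 and 17614 in the others labelled Shox2-/- and 16448 to 18543 with the wild-type label. Their part in the result was not tested.

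**Figure D5:**
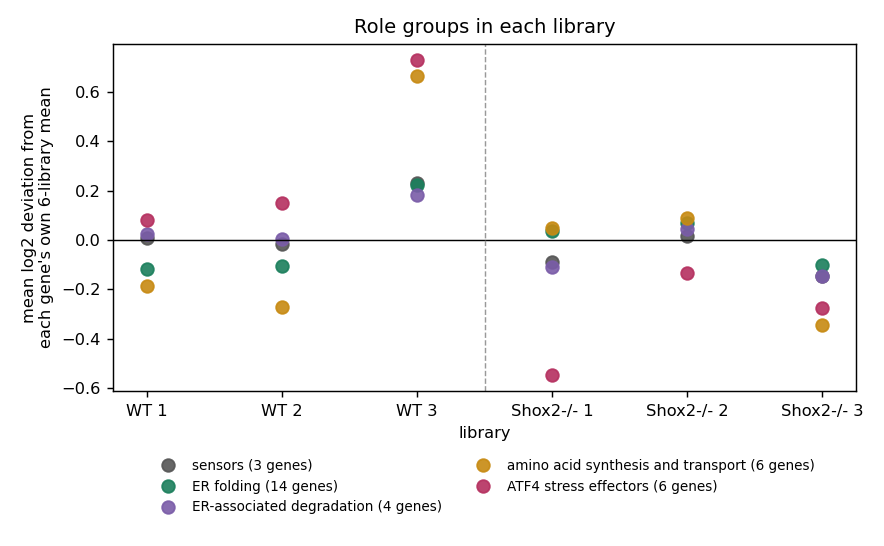
Mean deviation of log2(normalized count + 1) from each gene's own mean over 6 libraries, for 5 role groups (points) in each library. Library 3 labelled wild type is at 0.73 for the ATF4 stress effectors and 0.66 for the amino acid genes but 0.22 for ER folding. The mean of the stress effectors lies below 0 in the 3 libraries labelled Shox2-/-, although in library 3 of these 3 of the 6 genes are above their own mean.

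The genes with a CARE core in their promoter window shared a pattern. The list was chosen to include known ATF4 targets, so a site that ATF4 binds is not independent of that choice. The pattern was also not limited to genes with the element. Of the 12 genes of the broad amino acid arm, 11 were lower in the libraries labelled Shox2-/- and 10 were highest in library 3 labelled wild type. All 5 genes with a CARE core were lower by mean in the libraries labelled Shox2-/- (median log2 change -0.60, range -1.34 to -0.23). All 5 had their highest value in library 3 labelled wild type, with a median excess of 1.10 on the log2 scale over libraries 1 and 2. Among the 318 other tested genes with a CARE core in a window, 54.7% were lower, the median log2 change was -0.05 and 29.9% were highest in that library. Of the 8 genes with ERSE, 4 were lower and 4 higher (median -0.04, range -0.39 to 0.08), and 5 were highest in that library with a median excess of 0.32. Since 5 and 8 genes of known pathways are compared here, these counts describe the genes and no test was made. Without library 3 labelled wild type Asns turned to 0.14 and Slc7a11 came to -0.01, while Trib3, Chac1 and Herpud1 had lower means still.

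In the wider pathway lists 0 of 125 tested genes passed the adjusted threshold in limma, and 7 were lower and 5 higher at an unadjusted p under 0.05, shares below those of all genes (7.23% and 6.92%), so the genes named here by lowest p are a description. Voom called 0 of all 17034 genes. Of 10 kinases and processing factors, 2 were lower at an unadjusted p under 0.05. These were Ppp1r15a, the phosphatase subunit GADD34 that ends the translational block (log2 change -0.49, SE 0.15), and Eif2ak2, the double-stranded RNA sensor kinase PKR (-0.65, SE 0.21). Eif2s1, which encodes the translation factor subunit these kinases phosphorylate, had a log2 change of 0.32 (SE 0.14). For the 25 genes of ER translocation and glycosylation the median was 0.00 (12 lower, 13 higher), from Stt3b, a glycosyltransferase subunit (0.26), to the translocon gene Sec62 (-0.31). Ssr4, of the translocon-associated complex, had -0.18. Of the 19 further ER folding genes 13 were lower (median -0.06), among them Sil1, an exchange factor of BiP (-0.49), the collagen-directed isomerase gene Fkbp14 (-0.47) and the oxidase gene Ero1lb (-0.46). Of the 13 further degradation genes 8 were lower (median -0.01), with Os9 at -0.22, Nploc4 at 0.15 and Vcp at 0.10.

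On the amino acid side, the 20 aminoacyl-tRNA synthetase genes had 10 higher and 10 lower members (median 0.00). Wars and Hars were higher by 0.28 and 0.20 on the log2 scale, and Aars had -0.38, with 8225 in library 3 labelled wild type against 5256 and 5351 in libraries 1 and 2. Among 14 genes of serine, one-carbon and other amino acid metabolism 3 were lower and 2 higher at an unadjusted p under 0.05, where 7.23% and 6.92% of all genes were. Pycr1, which makes proline, was at 350, 357 and 535 under the wild-type label and at 163, 191 and 213 under the Shox2-/- label. Its groups were well apart, with a log2 change of -1.11 (SE 0.21; limma adjusted p = 0.189), the lowest p of the wider lists. Shmt1, the cytosolic counterpart of Shmt2, was higher by 0.54 (SE 0.13) and Pck2, a mitochondrial gluconeogenic enzyme gene, had -0.50 (SE 0.15). Of 11 further transporters 7 were higher and 4 lower (median 0.07), with the cationic transporter gene Slc7a3 at -0.81, the glutamine transporter gene Slc38a1 at 0.56 and Slc3a1 at 0.69 from values of 11.1 to 20.8.

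Of 13 tested ATF4-linked stress genes 10 were lower (median -0.19) and 0 had an unadjusted p under 0.05. Nupr1, a small stress-induced chromatin protein, was at 33.2, 24.1 and 369 normalized counts under the wild-type label and at 10.4, 23.2 and 14.1 under the Shox2-/- label. Its log2 change of -2.09 (SE 0.97) came mostly with library 3 labelled wild type, where the gene was 12.9-fold above the mean of libraries 1 and 2. Without that library the groups were parted only by 24.1 against 23.2, too little to count as a separation at these low values. Cdkn1a, the cell cycle inhibitor p21, and Gadd45b, a stress-induced signalling protein, were 1.94-fold and 2.70-fold higher in that library. In that library 6 of 6 cardiomyocyte markers were below both libraries 1 and 2 and 5 of 5 pluripotency markers above both. Of 7 hypoxia markers 6 were below both and 0 above both, while other lists were mixed. Of 8 fibroblast or mesenchyme markers 6 were above both libraries 1 and 2, with the proteoglycan gene Dcn 7.81-fold higher at 13277, but Pdgfra was at 8389 against 14484.5 and 14659, and Postn at 57068 against 61206 and 61415. Of 8 visceral endoderm markers 3 were above both, among them Alb at 378 against 16.6 and 9.12, and 5 were below both, among them Apob at 2293 against 4614 and 4236 and Ttr at 406 against 1107 and 871. In bulk libraries, fewer cells of a type and less RNA per cell cannot be told apart, and the part of such cells in the values of the stress genes was not tested.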

How the data were processed

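Per the labels' protocols, RNA was isolated with TRIzol and 500 ng per sample were sequenced on an Illumina HiSeq instrument. The submitters' processing notes name CASAVA 1.8.2, BWA, HTSeq, DESeq2 1.14.0 and build mm10, without role or order, and strandedness is not given in the sources used here. The authors deposited, as the values of the files show, gene counts divided by 1 size factor per library. Division by the value of 1 read gave whole reads for 100% of values within 0.1 reads. Genes with at least 10 in 3 libraries (17034) were tested with limma 3.58.1 in R 4.3.3 on log2(value + 1), as a two-sided test with a trend of variance on mean, and p-values were adjusted over all of these genes by Benjamini and Hochberg and called under 0.05. Library pairs were compared over genes with at least 100 reads in the pair together. A gene counted at an unadjusted p under 0.05 in a two-sided normal test of its split of reads between the libraries. Exon lengths and positions came from GENCODE M21 (GRCm38), which held 30484 of the IDs. Reads shared with an overlapping gene can be misassigned. Hsp90b1 shares 10.3% of its exon bases with 1810014B01Rik, and 8 further genes share up to 4.71% with any 1 neighbour.

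The 33 genes, the wider lists, the markers and the tests were chosen with earlier results of these data known. Named genes are the sensors, Atf4 and the 4 lowest p of each role, and the 3 lowest p of each wider list. Of the wider lists 4 symbols, among them newer synonyms, were not matched. The planned edgeR and DESeq2 alternatives and the protein tails were not run (voom on recovered reads was).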

Additional observations from a re-analysis of the deposited data

How the results depend on the processing

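The comparison was refitted under 16 other settings: other pseudocounts (0.5 and 8), filters (none and 50), scalings (library totals and upper quartiles), sample quality weights, voom on recovered reads, a block on the title word Diff9 (3 libraries), libraries 1 and 2 labelled wild type averaged, and each library left out. The planned edgeR and DESeq2 fits were not run, voom on recovered reads being used in their place, and Chac1 has no value under the filter of 50. In each of these settings 0 of the 33 genes were called by limma. Over all genes 0 were called in the main test, 994 with sample quality weights, 2 without a filter, and 0 to 51 with 1 library left out (51 without library 2 labelled Shox2-/-). The cause was not tested. The lowest adjusted p of the 33 genes was that of Trib3 with sample quality weights (0.0532). Of 527 refitted log2 changes of the 33 genes 479 kept their sign and 48 did not. Pdia3 and Pdia6 kept it in only 7 of 16 settings each and Pdia4 in 10, and Psat1 and Phgdh, in 13 each, turned to 0.295 and 0.328 without library 3 labelled wild type. For the genes named by rule 9 of 319 turned. Asns turned to 0.085 with sample quality weights and to 0.140 without library 3 labelled wild type, over a range of -0.426 to 0.140 with each library left out. Atf6 turned to 0.168 with the weights, 0.054 without library 2 labelled Shox2-/- and 0.096 without library 3 labelled wild type (range -0.122 to 0.096). Atf4 turned to 0.057 with the weights. Slc3a2 turned to 0.021 without library 3 labelled wild type (range -0.244 to 0.021), and Syvn1 to 0.015 with the Diff9 block and 0.011 without library 1 labelled wild type (range -0.228 to 0.011). The median of the ER folding genes was below 0 in 5 of the 16 settings. The median changes of the arms moved by less than their spread between replicates in each setting, a spread that library 3 labelled wild type makes wide. Genes with few reads (Chac1, Slc7a11, Trib3) are limited by depth in library 1 of each group.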

Other observations

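Some genes of the wider amino acid and ATF4-linked lists, picked after their values were seen, were high in library 3 labelled wild type. Aldh1l2, a mitochondrial folate dehydrogenase known as an ATF4 target, was at 244, 274 and 1797 normalized counts in libraries 1 to 3 of the wild-type label and 244, 366 and 482 under the Shox2-/- label. It was 6.94-fold above the mean of libraries 1 and 2 in library 3. Mthfd2, the mitochondrial methylenetetrahydrofolate dehydrogenase gene, was at 616, 624 and 1281 and at 908, 885 and 670. Slc7a5, the light chain of a large neutral amino acid exchanger, was at 493, 525 and 971 and at 612, 352 and 423, and Cebpb, a C/EBP partner of ATF4, at 126, 117 and 295 and at 116, 201 and 127. Fgf21, a stress hormone gene below the filter, had 20 reads in that library, 1 in each of libraries 1 and 2, and 0 in the 3 labelled Shox2-/-.

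Other genes of the same lists did not share the pattern. Shmt2, mitochondrial like Aldh1l2, was at 1.02-fold. Cytosolic one-carbon genes were near the level of libraries 1 and 2 (Shmt1 at 0.966-fold, Mthfd1 at 1.09-fold), as was the serine phosphatase gene Psph at 1.00-fold. Atf3 and Vldlr, both known to respond to ATF4, were lower in library 3, at 0.571-fold and 0.579-fold, and Stc2, a secreted glycoprotein gene, was at 0.803-fold. More than 1.5-fold above libraries 1 and 2 were 5 of 14 genes of the serine and one-carbon list and 5 of 13 of the ATF4-linked list, against 2 of 25 ER translocation genes, 3 of 20 synthetase genes and 12.03% of all tested genes.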
